A study of Mus musculus with 6 samples.

Results

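The genes described here are those of the BCL-2 family, the caspases and the adaptors, inhibitors and receptors of programmed cell death. A list of symbols and the pattern for numbered caspase symbols found 50 genes among the 35186 of the deposited table, and 0 listed symbols were missing. They were counted in spleen memory B cells of C57BL/6J mice, sorted for specificity to the hapten NP. The 3 wild-type libraries (WT) were set against 3 libraries labelled Nix-/-Bnip3-/- (DKO), in which both mitophagy receptor genes, Bnip3l (Nix) and Bnip3, are given as deleted. Strain, organ, sort and library kit are the same in all 6 libraries, each made from about 1000 cells. No source used here gives the age of the animals, the way each gene was deleted, or whether each library came from its own animal. The p-values therefore measure the spread between these libraries, which may be technical.

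In the mitochondrial route to cell death, BH3-only proteins carry the stress signal. Anti-apoptotic proteins such as BCL-2 and MCL-1 hold them in check, and the effectors BAX and BAK open the outer mitochondrial membrane. Proteins released through it act with APAF1 to activate caspase-9 and the executioner caspases, while inhibitor of apoptosis proteins (IAPs) restrain them. Death receptors such as FAS reach the same caspases through FADD and caspase-8, with cFLIP as the brake, and RIPK3 and MLKL carry out necroptosis when caspase-8 is blocked. BNIP3 and NIX are themselves distant BCL-2 relatives of the outer mitochondrial membrane, and survival of memory B cells depends on anti-apoptotic members of this family.

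The libraries were shallow and unlike each other, which bears on every value below. Counts are given in the order of libraries 1, 2 and 3, and levels as normalized CPM, the counts scaled by library size and a TMM factor (trimmed mean of M values). Total counts ran from 312908 to 517057. The TMM factors were 0.695 to 0.812 in the WT libraries and 1.28 to 1.38 in the DKO libraries. A count of 1 thus stood for 3.86 to 5.25 normalized CPM in WT and 1.84 to 2.26 in DKO. In library order the members took 481, 423 and 691 counts in WT and 827, 886 and 663 in DKO. That was 0.151% ± 0.0658 of all counts in WT and 0.162% ± 0.0298 in DKO (SD, n = 3). Spearman correlations across tested genes were 0.152 to 0.157 between WT libraries and 0.466 to 0.496 between DKO libraries. Between a WT and a DKO library they were 0.135 to 0.203. The WT libraries were thus no more alike than WT and DKO libraries were. After thinning to 312908 counts, 16800 to 18406 symbols had a count in the WT libraries and 22165 to 22878 in the DKO libraries. For the members the thinned numbers were 35, 34 and 38 against 39, 39 and 42 of 50, and 35, 37 and 38 against 43, 42 and 44 without thinning. The deleted genes themselves overlapped between groups: Bnip3l had 1, 8 and 0 counts in WT and 10, 16 and 41 in DKO, and Bnip3 had 25, 62 and 6 against 2, 24 and 11. The mean of Bnip3l goes against the label, and counts per gene cannot show a deleted exon, so directions below are between libraries as labelled. Of the B cell markers, Cd79a had 3, 0 and 0 counts in WT and 0, 2 and 4 in DKO, Ms4a1 had 28, 0 and 8 against 42, 70 and 65, and Cr2 had 50, 40 and 28 against 24, 36 and 30. Of the 15 markers on the B cell list 6 were tested, 3 with log2 fold changes above 0 and 3 below.

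Markers of other cells also differed between libraries. The summed level of 10 T cell markers was 303 to 987 normalized CPM in WT and 145 to 232 in DKO. Bcl11b made up 746 of the 987. Of the 4 tested 2 lay above 0, among them Cd3e with 4, 5 and 1 counts against 16, 20 and 11, and 2 below. The sum of 10 stromal and endothelial markers was 725 to 1170 against 392 to 543. Of the 8 tested 2 lay above 0, among them Pecam1 with 13, 5 and 3 counts against 72, 55 and 60, and 6 below. For 11 monocyte and macrophage markers the sum was 110 to 723 against 523 to 870. Of the 7 tested 3 lay above 0, among them Itgam and Lyz2 with DKO wholly above WT, and 4 below. For 9 neutrophil markers the sum was 216 to 383 against 102 to 1224 (Cxcr2 made up 1162 of the last, and Ltf had 25, 37 and 51 counts against 6, 13 and 17). It was, for 8 erythroid markers, 61.8 to 167 against 31.7 to 42.3, and Hba-a2 and Hbb-bs were at 0. The 15 B cell markers lay at 410 to 757 against 418 to 445, the 9 memory B cell markers at 124 to 486 against 280 to 357, 9 germinal centre markers at 298 to 719 against 244 to 830, and 8 plasma cell markers at 120 to 278 against 71.7 to 378. The part of these cells in the values of Fadd, Aifm1, Mcl1, Diablo or Cflar was not tested. In such pooled cells, fewer cells of a type and less RNA per cell cannot be told apart.

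No member passed the test between genotypes. At the spread seen here the test recovered none of the changed genes in simulated counts, so this does not show equal levels. Only 19 of the 50 passed the filter on counts and were tested, and 31 did not. In edgeR's quasi-likelihood test 0 of the 19 had an adjusted p under 0.05, as did 0% of the 8895 genes tested. DESeq2 and limma-voom also called 0 members, where DESeq2 called 2.45% of all tested genes higher and 4.31% lower in DKO and limma-voom called 0%. DESeq2 gave Apaf1 no adjusted p. At an unadjusted p under 0.05 there were 2 members higher in DKO, Fadd and Aifm1, and 1 lower, Apaf1. The same threshold took 5.49% of all tested genes higher and 6.59% lower, so 2 and 1 of 19 lie near that background. Without DKO library 1 the count of members was 0, and without DKO library 2 it was 1, where the share of all tested genes went from 12.1% to 6.62% and 6.60%. Of the tested members 10 had log2 fold changes above 0 (45.5% of all tested genes did) and 9 below (54.5%). Their median was 0.25, beside -0.17 for all tested genes. With library totals alone in place of TMM scaling, the medians were 1.03 and 0.62, and 16 of the 19 members and 64.3% of all tested genes lay above 0. A gene passes the filter more easily where 1 group is high, so these counts describe the tested members only.

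**Figure D1:**
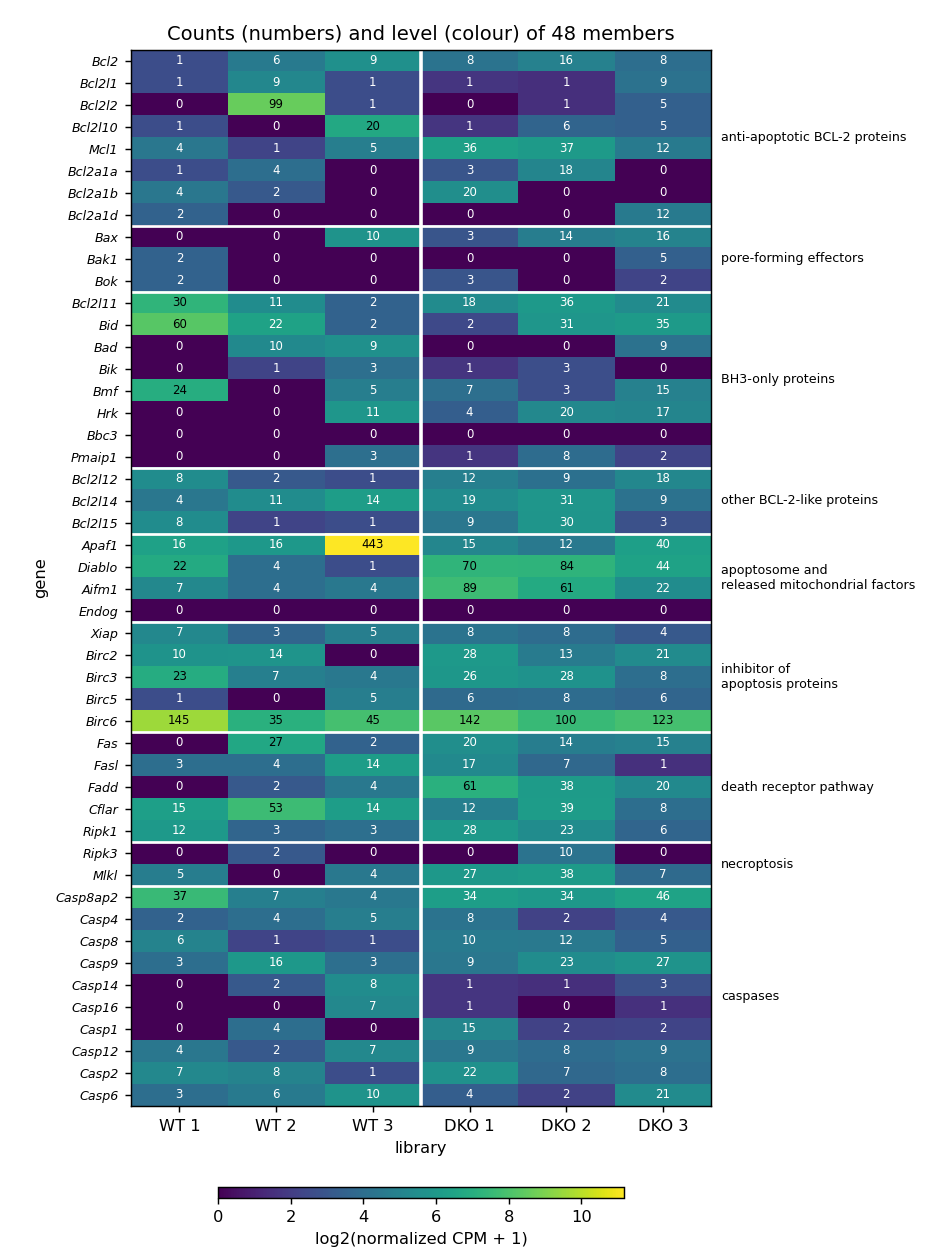
Raw counts (numbers) and level (colour, log2 of normalized CPM plus 1) of 48 of the 50 members (rows, grouped by role) in the 6 libraries (columns; WT to the left of the white line, DKO to the right). Many rows hold most of their signal in 1 library, such as Apaf1 with 443 counts in WT library 3 and Bcl2l2 with 99 in WT library 2, and Bbc3 and Endog are at 0 throughout.

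Among the 8 anti-apoptotic genes only Mcl1 was tested. MCL-1 is a short-lived protector on which B cells depend. Its counts were 4, 1 and 5 in WT and 36, 37 and 12 in DKO, or 17.0 ± 11.7 against 57.6 ± 30.5 normalized CPM (SD, n = 3). DKO library 3, at 23.2, lay just under WT library 3, at 26.3, and the other DKO libraries lay above every WT library. The log2 fold change of Mcl1 lay at 1.77 (SE 1.05, edgeR adjusted p = 0.485) and stayed between 1.32 and 2.30 with any 1 library left out. With library totals alone the groups of Mcl1 did not overlap.

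The other protectors had few or unevenly spread counts. Bcl2, the founding member of the family, had 1, 6 and 9 counts in WT and 8, 16 and 8 in DKO, which gave 25.2 ± 21.1 against 21.0 ± 7.42 normalized CPM (SD, n = 3). Bcl2l1, which encodes BCL-XL, had 1, 9 and 1 against 1, 1 and 9. Neither gene had separate groups. Bcl2l2, which encodes BCL-W, had 0, 99 and 1 counts in WT and 0, 1 and 5 in DKO, so that 95.8% of its summed normalized CPM came from WT library 2. Bcl2l10 likewise had 20 of its 33 counts in WT library 3. In both cases a single library stood high, not a group.

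The A1 genes Bcl2a1a, Bcl2a1b and Bcl2a1d encode a protector induced by NF-kB in lymphocytes. They are near-identical copies on chromosome 9 (mm10; Bcl2a1a at 88956900 to 88962419, Bcl2a1b at 89199209 to 89207827, Bcl2a1d at 88723285 to 88731914). Their coding sequences are shown because short reads from much of their length match more than 1 copy. Each is 519 bases long, and the pairs differ at 6 to 11 bases (identity 97.9% to 98.8%), with 12 variable positions among the 3. The stretch below covers coding bases 1 to 150 of the GENCODE transcripts, 5′ to 3′, with the 7 variable positions in it in capitals.
Bcl2a1a: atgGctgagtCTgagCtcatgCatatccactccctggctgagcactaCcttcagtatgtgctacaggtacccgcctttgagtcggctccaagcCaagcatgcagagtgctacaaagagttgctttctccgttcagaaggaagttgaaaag
Bcl2a1b: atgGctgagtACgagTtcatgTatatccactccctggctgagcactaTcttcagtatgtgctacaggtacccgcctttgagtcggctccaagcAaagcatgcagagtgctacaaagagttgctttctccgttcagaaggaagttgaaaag
Bcl2a1d: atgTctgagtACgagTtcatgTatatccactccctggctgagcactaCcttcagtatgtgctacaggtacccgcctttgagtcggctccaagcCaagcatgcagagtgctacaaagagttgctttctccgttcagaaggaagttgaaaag

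Of the 470 windows of 50 coding bases, 74.0% of those of Bcl2a1a, 52.3% of those of Bcl2a1b and 83.6% of those of Bcl2a1d also occur in another copy. No source used here says how reads with several matches were counted, and the split between copies is uncertain. The counts of Bcl2a1a were 1, 4 and 0 in WT and 3, 18 and 0 in DKO. Those of Bcl2a1b were 4, 2 and 0 against 20, 0 and 0, and those of Bcl2a1d were 2, 0 and 0 against 0, 0 and 12. In the DKO libraries the reads thus fell mostly on a different copy each time: Bcl2a1b in library 1, Bcl2a1a in library 2 and Bcl2a1d in library 3. Added over the 3 copies, the counts were 7, 6 and 0 in WT and 23, 18 and 12 in DKO. As summed normalized CPM these were 36.6, 23.2 and 0 against 52.0, 33.1 and 23.2, and the groups overlapped through WT library 1.

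**Figure D2:**
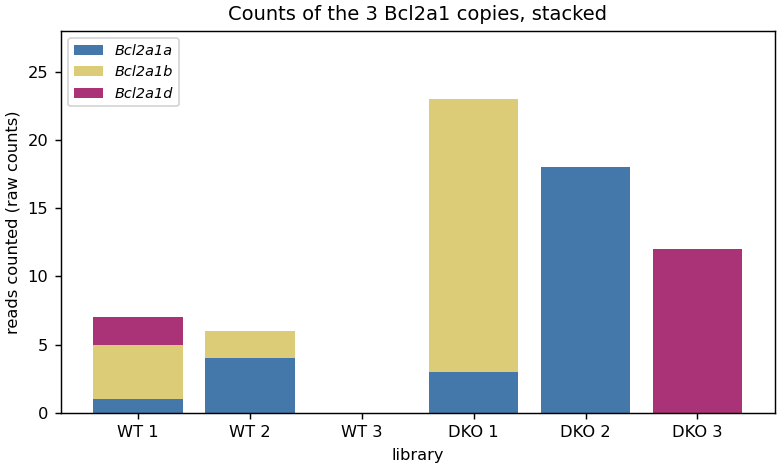
Raw counts (y axis) of Bcl2a1a, Bcl2a1b and Bcl2a1d stacked in each library (x axis). The summed counts are 7, 6 and 0 in WT and 23, 18 and 12 in DKO, and a different copy takes most of the counts in each DKO library.

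Of the effectors that open the outer mitochondrial membrane only Bax was tested. The counts of Bax were 0, 0 and 10 counts in WT and 3, 14 and 16 in DKO (17.5 ± 30.3 against 21.2 ± 12.7 normalized CPM, SD, n = 3). A log2 fold change of 0.32 (SE 1.38) for Bax went to -0.18 and -0.26 without WT library 1 or 2. All WT counts of Bax came from library 3, so without it no fold can be given. Bak1 had 2, 0 and 0 against 0, 0 and 5, and Bok had 2, 0 and 0 against 3, 0 and 2. A count of 3 in 1 library corresponds to 5.52 to 15.8 normalized CPM, so no difference in Bak1 or Bok was detectable at this depth.

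Of the 8 BH3-only genes, Bcl2l11, Bid and Hrk were tested, and their groups overlapped. Bcl2l11 encodes BIM, the main killer of lymphocytes deprived of survival signals. It had 30, 11 and 2 counts in WT and 18, 36 and 21 in DKO, or 69.9 ± 76.9 against 49.2 ± 14.8 normalized CPM (SD, n = 3). The WT libraries spanned a wider range than the DKO libraries, which lay inside it. The log2 fold change of Bcl2l11 was -0.50 (SE 1.05), or 0.93 without WT library 1 and 0.25 with library totals alone.

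Bid, which links caspase-8 to mitochondria, had 60, 22 and 2 counts in WT and 2, 31 and 35 in DKO. Both groups held 1 low library, and the WT mean rested on library 1, which held 58.2% of the summed normalized CPM. The log2 fold change of -1.65 (SE 1.26, edgeR adjusted p = 0.587) became -0.09 without WT library 1 and -0.99 without DKO library 1. Exons of Bid overlap those of Bcl2l13 on the other strand, a gene with 17, 7 and 7 counts in WT and 23, 56 and 27 in DKO. Hrk, a neuronal BH3-only gene, had 0, 0 and 11 against 4, 20 and 17 (log2 fold change 0.49, SE 1.38). All of its WT counts, too, came from library 3.

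The BH3-only genes that were not tested were unevenly spread. Bmf, which responds to loss of attachment and of survival signals, had 24, 0 and 5 counts in WT and 7, 3 and 15 in DKO. Bad had 0, 10 and 9 against 0, 0 and 9, and its exons overlap those of Gpr137 on the other strand. Pmaip1, the p53 target known as Noxa, had 0, 0 and 3 against 1, 8 and 2, and Bik had 0, 1 and 3 against 1, 3 and 0. Bbc3, which encodes PUMA, had 0 counts in all 6 libraries, where a count of 0 allows up to 3. Summed over the 8 genes, the level was 316 ± 242 normalized CPM in WT and 151 ± 66.0 in DKO (SD, n = 3), with overlapping groups.

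The less typical relatives of BCL-2 had no separated groups either. Bcl2l12 had 8, 2 and 1 counts in WT and 12, 9 and 18 in DKO, with a log2 fold change of 0.53 (SE 1.04), or 2.01 without WT library 1. Its exons overlap those of Gm15545 and, over a shorter stretch, of Irf3, both on the other strand, with 3, 17 and 2 counts against 9, 35 and 6 and 1, 6 and 24 against 2, 3 and 0. Bcl2l14 had 4, 11 and 14 against 19, 31 and 9 (-0.22, SE 0.95), and Bcl2l15 had 8, 1 and 1 against 9, 30 and 3.

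The proteins that mitochondria release included 1 of the 2 members whose DKO libraries all lay above all WT libraries. Over all tested genes, 12.8% had groups that did not overlap with DKO higher and 6.39% with DKO lower, beside 2 and 1 of the 19 tested members. Aifm1 (chromosome X, 48474944 to 48513563, minus strand) encodes AIF, a flavoprotein of the intermembrane space needed for respiratory chain assembly and able to move to the nucleus in cell death. It had 7, 4 and 4 counts in WT and 89, 61 and 22 in DKO, or 24.3 ± 10.9 against 119 ± 79.5 normalized CPM (SD, n = 3). The lowest DKO library of Aifm1 lay at 42.6 and the highest WT library at 36.6. Between groups this was a log2 fold change of 2.28 (SE 1.01), with an unadjusted p of 0.0440 and an edgeR adjusted p of 0.406, and it lay between 1.82 and 2.77 with any 1 library left out.

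Diablo encodes SMAC, which frees caspases from IAPs. It had 22, 4 and 1 counts in WT and 70, 84 and 44 in DKO, or 45.2 ± 60.6 against 133 ± 41.2 normalized CPM (SD, n = 3). WT library 1 lay at 115, above DKO library 3 at 85.2, and the other WT libraries lay below all DKO libraries. The log2 fold change of Diablo was 1.56 (SE 1.13, edgeR adjusted p = 0.564), or 3.67 without WT library 1. Endog, a mitochondrial nuclease gene, had 0 counts in every library.

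Apaf1 (chromosome 10, 90989311 to 91082770, minus strand) encodes the scaffold of the apoptosome. Its counts were 16, 16 and 443 in WT and 15, 12 and 40 in DKO, or 824 ± 1301 against 44.5 ± 29.2 normalized CPM (SD, n = 3). The low value in DKO came from a single WT library: WT library 3 held 89.3% of the summed level, and WT library 2, at 61.8, lay below DKO library 3, at 77.5. The log2 fold change of -4.20 (SE 1.73, unadjusted p = 0.0325, edgeR adjusted p = 0.395) went to -0.63 without WT library 3.

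**Figure D3:**
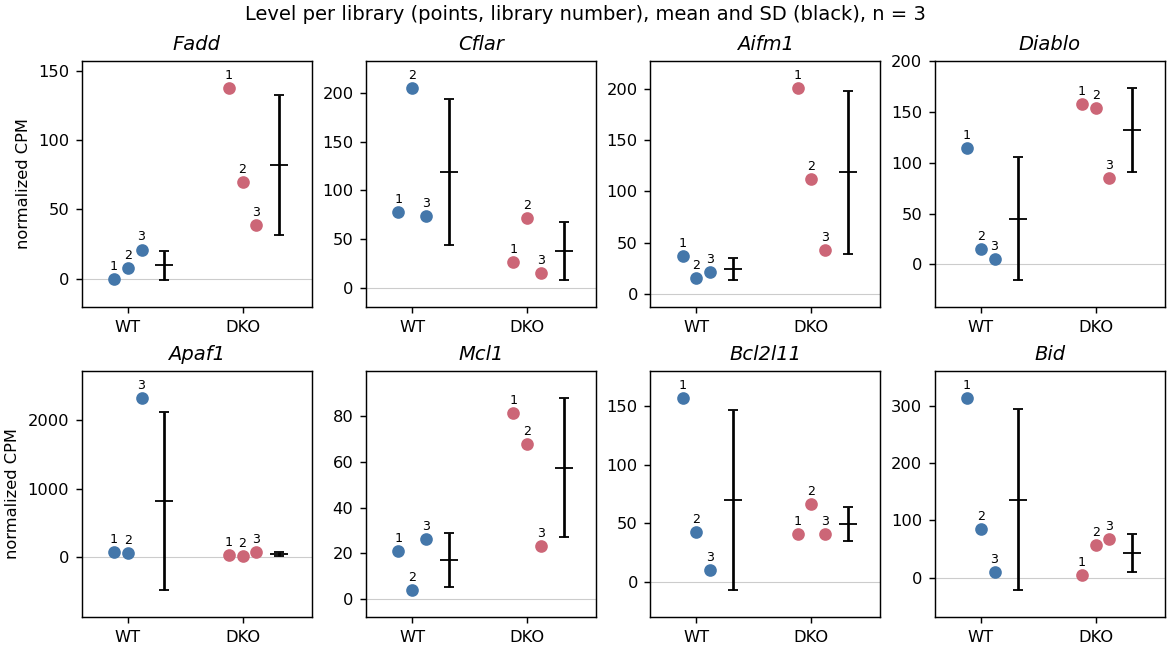
Normalized CPM (y axis, linear) of 8 members in each library (points, numbered by library; WT blue, DKO red), with the mean and SD of each group (black, n = 3). Fadd and Aifm1 have all DKO points above all WT points, Cflar the reverse, and the WT mean of Apaf1 is set by library 3 at 2326.

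The IAP genes had overlapping groups. Birc6, a giant ubiquitin ligase that also blocks caspases, was the member with the most counts, 145, 35 and 45 in WT and 142, 100 and 123 in DKO. It also has the longest exonic sequence of the members, 25772 bases. Its level was 376 ± 334 against 248 ± 69.1 normalized CPM (SD, n = 3), and its log2 fold change of -0.60 (SE 1.14) was 0.49 without WT library 1. Birc2 and Birc3 encode cIAP1 and cIAP2, ligases of TNF receptor and NF-kB signalling. Birc2 had 10, 14 and 0 counts against 28, 13 and 21 (log2 fold change 0.25, SE 1.14), and Birc3 had 23, 7 and 4 against 26, 28 and 8 (-0.41, SE 1.03, or 0.86 without WT library 1). Xiap, a direct inhibitor of caspases, had 7, 3 and 5 against 8, 8 and 4. Birc5, which encodes survivin and is linked to cell division, had 1, 0 and 5 against 6, 8 and 6.

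Of the 12 caspase symbols, which include the caspase-8 binding protein gene Casp8ap2, only Casp8ap2 and Casp9 were tested. Casp9, the initiator activated on the apoptosome, had 3, 16 and 3 counts in WT and 9, 23 and 27 in DKO, or 31.1 ± 26.6 against 38.3 ± 16.3 normalized CPM (SD, n = 3). Casp9 lay at 0.28 on the log2 scale (SE 0.97, edgeR adjusted p = 0.927), and at 1.31 without WT library 2. Casp9 shares exonic bases with Cela2a on the other strand, which had 3, 1 and 0 counts against 14, 6 and 4. Casp8ap2, a nuclear protein of histone gene expression as well, had 37, 7 and 4 against 34, 34 and 46. Its value of -0.07 (SE 1.04) became 1.71 without WT library 1.

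Casp8, the initiator of the death receptor route, had 6, 1 and 1 against 10, 12 and 5. Casp6, an executioner gene, had 3, 6 and 10 against 4, 2 and 21. Casp2, an initiator linked to DNA damage and ploidy, had 7, 8 and 1 against 22, 7 and 8.

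The inflammatory caspases were at similarly few counts. Casp1, the enzyme of the inflammasome, had 0, 4 and 0 in WT and 15, 2 and 2 in DKO. Casp4 had 2, 4 and 5 against 8, 2 and 4, and Casp12 had 4, 2 and 7 against 9, 8 and 9. Casp14, of the skin, had 8 of its 15 counts in WT library 3, as did Casp16 with 7 of 9. Summed over the 12 symbols, the level was 280 ± 44.6 normalized CPM in WT and 270 ± 20.6 in DKO (SD, n = 3), with overlapping groups. Casp8ap2, which does not encode a caspase, gave 80.4 and 76.2 of these means. Relative to its mean, though not by its SD, the sum varied less between libraries than most single genes of the 12 did. A sum over several unevenly spread genes tends to do so, and no conclusion about caspases is drawn from it.

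The death receptor route held both other members with separated groups, in opposite directions. Fadd (chromosome 7, 144577318 to 144582463, minus strand), the adaptor that brings caspase-8 to receptors, had 0, 2 and 4 counts in WT and 61, 38 and 20 in DKO. Its level was 9.58 ± 10.6 against 82.2 ± 50.7 normalized CPM (SD, n = 3), and the lowest DKO library, at 38.7, lay above the highest WT library, at 21.0. Fadd had the highest log2 fold change of the tested members, 3.07 (SE 1.20, unadjusted p = 0.0257, edgeR adjusted p = 0.390). With 1 library left out it lay between 2.59 and 4.26, the latter without WT library 3. The antisense gene Faddos overlaps its exons and had 0, 0 and 1 counts in WT and 3, 28 and 0 in DKO; without a stated strand setting reads of the stretch shared by both genes cannot be told apart. In all, 11 members share exonic bases with another gene of the table.

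The sequences before the start sites of Fadd and Aifm1 are shown because these were the members with DKO libraries wholly above WT. They are RefSeq promoter bases (GRCm38.p6, the build mm10) on the gene's strand, 5′ to 3′, cut before the first annotated exon base. They cover chr7:144582464-144582691 for Fadd and chrX:48513564-48513813 for Aifm1. Capitals mark matches, on either strand, to 6 motifs: the GC box GGGCGG, the CCAAT box CCAAT, the ETS site CCGGAAG, the E-box CACGTG, the TATA box TATAAA and the cAMP response element TGACGTCA. No motif's letters lie within another's.
Fadd: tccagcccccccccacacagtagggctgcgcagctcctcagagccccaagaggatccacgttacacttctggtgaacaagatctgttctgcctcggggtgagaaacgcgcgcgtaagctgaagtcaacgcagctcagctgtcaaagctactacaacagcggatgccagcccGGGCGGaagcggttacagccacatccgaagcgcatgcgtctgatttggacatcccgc
Aifm1: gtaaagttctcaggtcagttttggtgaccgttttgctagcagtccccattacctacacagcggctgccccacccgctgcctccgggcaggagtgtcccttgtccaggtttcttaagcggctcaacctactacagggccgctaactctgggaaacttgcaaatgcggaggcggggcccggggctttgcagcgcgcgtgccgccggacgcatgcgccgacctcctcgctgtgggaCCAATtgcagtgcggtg

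The Fadd stretch held 1 GC box and none of the other motifs, and the Aifm1 stretch held 1 CCAAT box. In the 250 bases before the start, a GC box occurred in 58.6% of the 58 promoters of 44 members and in 32.7% of all 32851 promoters. A CCAAT box occurred in 27.6% against 33.8%, an ETS site in 6.90% against 6.91% and an E-box in 8.62% against 6.02%. A TATA box occurred in 5.17% against 12.4%, and the cAMP response element in 1.72% against 1.55%. These matches are descriptions of the letters and not of factor binding.

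Cflar (chromosome 1, 58711508 to 58758884, plus strand) encodes cFLIP, which blocks caspase-8 at the receptor. It had 15, 53 and 14 counts in WT and 12, 39 and 8 in DKO, or 119 ± 74.4 against 38.1 ± 29.7 normalized CPM (SD, n = 3). The groups were narrowly apart, with the lowest WT library at 73.5 and the highest DKO library at 71.8. Cflar lay at -1.63 on the log2 scale (SE 0.99, edgeR adjusted p = 0.495), at -0.94 without WT library 2 and at -2.38 without DKO library 2. The separation of Cflar was absent with library totals alone, under which 4 of the tested members, Mcl1, Diablo, Aifm1 and Fadd, had DKO wholly above WT and 0 had it below. By that measure 24.4% of all tested genes were wholly above and 2.36% wholly below.

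The receptor gene Fas, also a marker of germinal centre B cells, had 0, 27 and 2 counts in WT and 20, 14 and 15 in DKO. The DKO libraries were close together and lay inside the WT range. Its log2 fold change was -0.23 (SE 1.23), or 2.63 without WT library 2. The ligand gene Fasl, a product of T and NK cells, had 3, 4 and 14 against 17, 7 and 1. Ripk1, the kinase at the junction of survival and death signals, had 12, 3 and 3 against 28, 23 and 6 (0.39, SE 1.05, or 1.57 without WT library 1). Ripk1 shares exonic bases with Serpinb6a on the other strand, which had 1, 18 and 1 counts against 1, 16 and 14.

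Of the necroptosis genes, Mlkl, the membrane executioner, had 5, 0 and 4 counts in WT and 27, 38 and 7 in DKO, or 15.7 ± 13.8 against 48.2 ± 30.3 normalized CPM (SD, n = 3). DKO library 3, at 13.6, lay inside the WT range, and Mlkl did not pass the filter for testing. Ripk3, the kinase that activates MLKL, had 0, 2 and 0 against 0, 10 and 0.

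**Figure D4:**
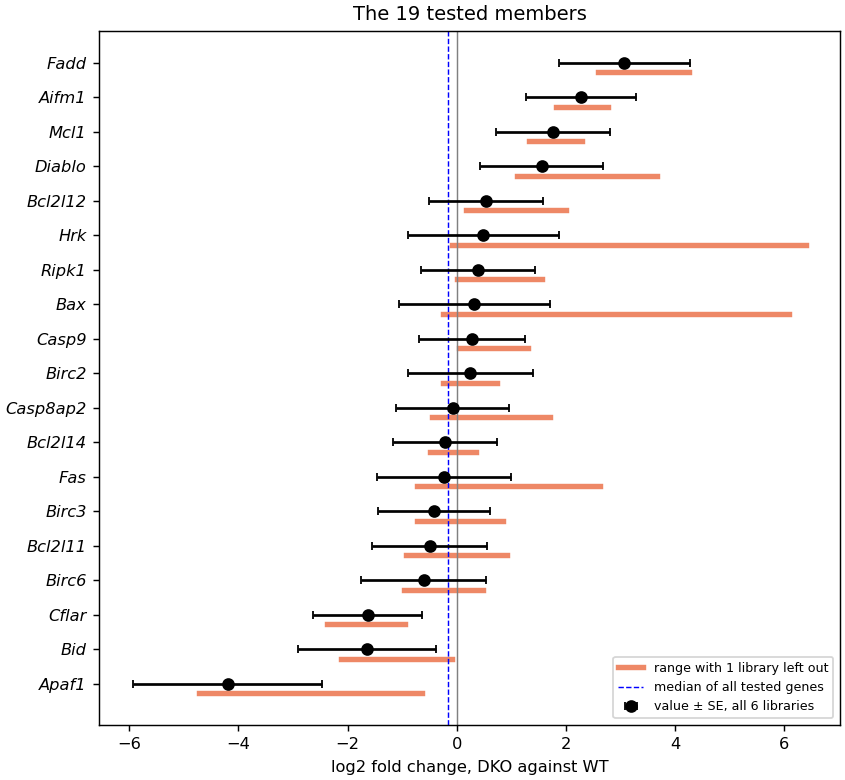
Log2 fold change, DKO against WT, of the 19 tested members (black points with SE, edgeR), with the range over fits that leave out 1 library (orange bars) and the median of all tested genes (dashed line, -0.17). Fadd, Aifm1, Mcl1, Diablo, Bcl2l12, Casp9 and Ripk1 stay above 0 in every such fit, Casp9 and Ripk1 only just (lowest 0.036 and 0.011). Cflar, Bid and Apaf1 stay below 0, Bid only just (highest -0.092). The bar of Fas crosses 0 and reaches 2.63. The right ends of Bax and Hrk are fits against 0 counts in WT and show no size.

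Per kilobase of exonic sequence, the order of the members differed between the groups. In the DKO libraries the highest mean levels were those of Aifm1, at 29.6 normalized CPM per kilobase, Diablo at 21.5, Fadd at 21.1 and Mlkl at 20.9. The WT means of these genes were 6.08, 7.33, 2.45 and 6.82. In WT the highest were Apaf1 at 91.3, Bid at 38.4, Bcl2l10 at 30.1 and Bcl2l2 at 29.0, each carried mostly by 1 library. Neighbours in either order lay within the spread between libraries of each other. Among the protectors, Mcl1 lay at 4.98 in WT and 16.8 in DKO, and Bcl2 at 2.75 and 2.29. Signal in single libraries was common: 3 of the 19 tested members and 29.7% of all tested genes had over 50% of their summed normalized CPM in 1 library. The library with the highest level was WT library 3 for 16, WT library 1 for 11 and WT library 2 for 6 of the 48 counted members. It was DKO library 1 for 9, DKO library 2 for 5 and DKO library 3 for 1. A single count weighs more in WT than in DKO after scaling. The same split over all tested genes was not counted, so it is not read as a trait of the members.

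Other genes of cell death, a list of 59 of which 58 were in the table, gave 32 tested genes. Of these 15 lay above 0 and 17 below, with a median log2 fold change of -0.04, and 0 passed the edgeR test. At an unadjusted p under 0.05 there was 1 higher and there were 2 lower. The same threshold took 5.49% of all tested genes higher and 6.59% lower. The 4 genes named next were picked by their small p in these data. Tmbim6, an inhibitor of BAX-induced death in the endoplasmic reticulum, had 0, 0 and 4 counts in WT and 36, 55 and 57 in DKO. It lay at 3.81 on the log2 scale (SE 1.34, edgeR adjusted p = 0.390, DESeq2 adjusted p = 0.0225, limma-voom adjusted p = 0.488). Without WT library 2 it lay at 3.22, and all its WT counts came from library 3. Tnfrsf1a, the main TNF receptor and upstream of FADD and RIPK1, had 104, 165 and 16 counts in WT and 1, 3 and 4 in DKO. It lay at -6.24 (SE 1.37, edgeR adjusted p = 0.389, DESeq2 adjusted p = 5.75e-06, limma-voom adjusted p = 0.329), and between -6.66 and -5.77 with 1 library left out. Zbp1, a nucleic acid sensor that engages RIPK3, had 672, 12 and 15 against 13, 53 and 6. Its value of -4.70 was -0.36 without WT library 1. Traf3, an adaptor that restrains B cell survival, had 7, 215 and 7 against 58, 26 and 30, and its value of -1.93 was 1.14 without WT library 2.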

How the data were processed

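The values are raw counts, which the authors deposited as a single table of gene symbols by library; its 6 columns were matched to samples by name (0 unmatched). Per the submitters' processing notes, CASAVA, STAR, edgeR and R 3.6.3 were used with the genome build mm10; no source used here gives their roles, the counter, whether it used strand, or the annotation release. Per the labels' protocols, polyadenylated RNA of about 1000 cells was amplified, so counts are not independent molecules and floors of 3 counts cover counting error only.

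The main test was that of edgeR 4.0.16 in R 4.3.3 (with limma 3.58.1, and DESeq2 1.42.0 as an alternative): filterByExpr with a minimum count of 10, TMM, and a robust quasi-likelihood F test over all 6 libraries without covariates. Benjamini-Hochberg adjustment ran over 8895 genes, with a threshold of 0.05. Standard errors are the log2 fold change over the square root of F. Tested on simulated counts, it recovered most changed genes at a small spread between libraries and none at the spread seen here. Thinning drew each library to 312908 counts. Positions and exonic lengths are from GENCODE M21 (49 of 50 members matched by symbol), promoters from RefSeq.

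Members, gene lists and tests were chosen with earlier results of these data known. All 50 members enter the counts and sums, and the values of 2 of them and of 1 marker are not reported here. Counts per library were to be given for members with an unadjusted p under 0.05 or groups that did not overlap, the 2 most abundant of each role and 13 key genes, and for the 4 other cell death genes with the smallest p; further members are printed because their counts are few. Alternatives were other scalings (DESeq2 size factors, upper quartile, library totals), no filter or a mean CPM of at least 10, DESeq2, a limma-voom fit with quality weights, a fit that was not robust, a threshold of 0.1, the replicate number as a block and each library left out. Overlap of groups under library totals was added after seeing the data.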

Additional observations from a re-analysis of the deposited data

How the results depend on the processing

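With 0 members past an adjusted p of 0.05, edgeR, DESeq2 and limma-voom gave the same count under every alternative run, and edgeR also at a threshold of 0.1. Over all genes the count was 0, or 130 with no filter on low counts (22 higher, 108 lower) and 601 with DESeq2 (218 higher, 383 lower). The number of members at an unadjusted p under 0.05, 3 in the reported fit, was 1 with the replicate block (6.69% of all tested genes, from 12.1%), 0 to 3 with 1 library left out (6.60% to 16.6%), 4 with a mean CPM of at least 10 (13.6%), 2 with the size factors of DESeq2 and in limma-voom, and 3 in the others. For the tested members the median log2 fold change, 0.25 as reported, was 0.10 with the size factors of DESeq2, 0.52 with upper quartile scaling, 1.03 with library totals alone, 0.053 with a mean CPM of at least 10 (34 members), 0.10 in DESeq2, 0.59 in limma-voom and 0.63 with the replicate block, and -0.089 to 0.67 with 1 library left out. The median of all tested genes, -0.17 as reported, moved too: it was -0.29, 0.098, 0.62, -0.089, -0.30, 0.23 and 0.27 in the same order, and -0.22 to 0.091 with 1 library left out. Library totals alone leave out the TMM factors, which were lower in every WT library than in every DKO library. The cause of the other shifts was not tested. There were 3 members whose groups did not overlap, 2 higher and 1 lower in DKO. With library totals alone there were 4, of which 4 were higher and 0 lower. Over all tested genes the shares went from 12.8% higher and 6.39% lower to 24.4% and 2.36%.

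Some values changed sign. With upper quartile scaling Bcl2l14 was at 0.058, Fas at 0.11 and Casp8ap2 at 0.13. With library totals alone Bcl2l11 was at 0.25, Bcl2l14 at 0.58, Birc3 at 0.33, Birc6 at 0.12, Fas at 0.63 and Casp8ap2 at 0.64. With no filter Bcl2l14 was at 0.11, Fas at 0.038 and Casp8ap2 at 0.26, and with a mean CPM of at least 10 Casp8ap2 was at 0.11. In limma-voom Bcl2l11 was at 0.27, Fas at 1.37 and Casp8ap2 at 0.59, and with the replicate block they were at 0.14, 0.99 and 0.63. With 1 library left out the ranges were -0.26 to 6.09 for Bax, -0.93 to 0.93 for Bcl2l11, -0.73 to 0.86 for Birc3, -0.96 to 0.49 for Birc6, -0.45 to 1.71 for Casp8ap2, -0.089 to 6.40 for Hrk, -0.73 to 2.63 for Fas, -2.40 to 1.14 for Traf3 (not a member), -0.49 to 0.36 for Bcl2l14 and -0.25 to 0.74 for Birc2. The upper ends of Bax and Hrk are fits against 0 counts in WT, set by the prior count.

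The labels give libraries of the same number no link beyond that number. The correlations of their deviations from the group means were 0.023, 0.027 and 0.037, each below 0.1, though each library correlated best with its own number. Pairs of different numbers lay at -0.024 to -0.0038. Values this small do not settle whether libraries of the same number were linked. Depth and the uneven spread of counts over libraries limit what can be seen. The filter asks for enough counts in several libraries, and 31 of the 50 members did not pass it. Summed counts ran from 0 to 106 in untested members and from 43 to 590 in tested ones.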
